A study of Homo sapiens with 4 samples.

Results

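The RNA levels of 7 keratins (KRT7, KRT8, KRT18, KRT19, KRT80, KRT81 and KRT86) and of vimentin (VIM) were followed across 4 RNA-seq libraries of A549 cells. These 8 genes are the rows of the deposited count table that carry those symbols, of 57905 genes in all, and all 8 passed the filter on low levels that 13966 genes passed. A549 is a human cell line derived from a lung adenocarcinoma. The study asked how raising or lowering DCBLD2, a transmembrane receptor-like protein, changes the transcriptome of these cells, and 1 library was sequenced for each of 4 conditions. The conditions were a scramble hairpin control (sc), a hairpin against DCBLD2 (shDCBLD2), an empty vector, and a vector carrying DCBLD2, whose library is called the OE-labelled library here after its label, DCBLD2 overexpression. The lines were made by lentiviral infection and drug selection. The coding sequence was driven by an EF1 promoter, and the shDCBLD2 library is titled shD5, without the hairpin sequence that this title stands for. No condition had a replicate, so no p-value is given, and every comparison is between these libraries rather than between the conditions they stand for. Intervals are exact 95% intervals and cover counting error only.

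The libraries held between 16601633 counts, in the OE-labelled library, and 21537283 counts, in shDCBLD2. Levels are given as CPM, the counts of a gene relative to the library total after scaling with TMM factors. DCBLD2, the targeted gene, stood at 504 CPM in sc and 197 CPM in shDCBLD2, a log2 ratio of -1.35. It stood at 434 CPM for the empty vector and at 242 CPM in the OE-labelled library, a log2 ratio of -0.84, which goes against that label. No direction reported for that library can therefore be read as the effect of more DCBLD2 RNA.

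Keratins are the intermediate filament proteins of epithelial cells. An acidic type I keratin always pairs with a basic type II keratin, and neither forms filaments alone. KRT8 (type II) with KRT18 (type I) is the founding pair of simple epithelia, and KRT7 (type II) and KRT19 (type I) accompany it in ducts, airways and many adenocarcinomas. KRT81 and KRT86 are type II keratins first known from the hair shaft and also found in carcinoma lines. KRT80 is a type II keratin found near cell junctions. Vimentin is the type III filament protein of mesenchymal cells, and a shift from keratin to vimentin is widely used as a sign of epithelial-mesenchymal transition (EMT).

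The 8 genes together took between 2.12% of all counts in shDCBLD2 and 2.53% in the OE-labelled library. Levels of different genes were compared per length, with the deposited FPKM values. These divide by the exonic gene size, which was 5005 bases for KRT8, 4093 for KRT7, 3218 for KRT18 and 1929 for KRT81. The longest coding transcripts of these genes have 2437, 1754, 1696 and 1929 bases. Orders and ratios of different genes by FPKM therefore depend on the length used. By FPKM, KRT81 was the highest of the 8 in every library, between 2424 FPKM in sc and 3203 FPKM in shDCBLD2. KRT8, KRT18 and KRT7 came next in every library, although their order changed. In sc they stood at 1679, 1645 and 1013 FPKM, whereas in shDCBLD2 KRT7 led with 1208 FPKM, ahead of KRT8 with 950 FPKM and KRT18 with 887 FPKM. VIM was far lower, between 199 and 406 FPKM, and KRT80 lay between 50.8 and 63.9 FPKM. KRT19 and KRT86 were the least abundant members in 3 of the 4 libraries, but in the OE-labelled library KRT19 reached 78.1 FPKM and exceeded KRT80.

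**Figure D1:**
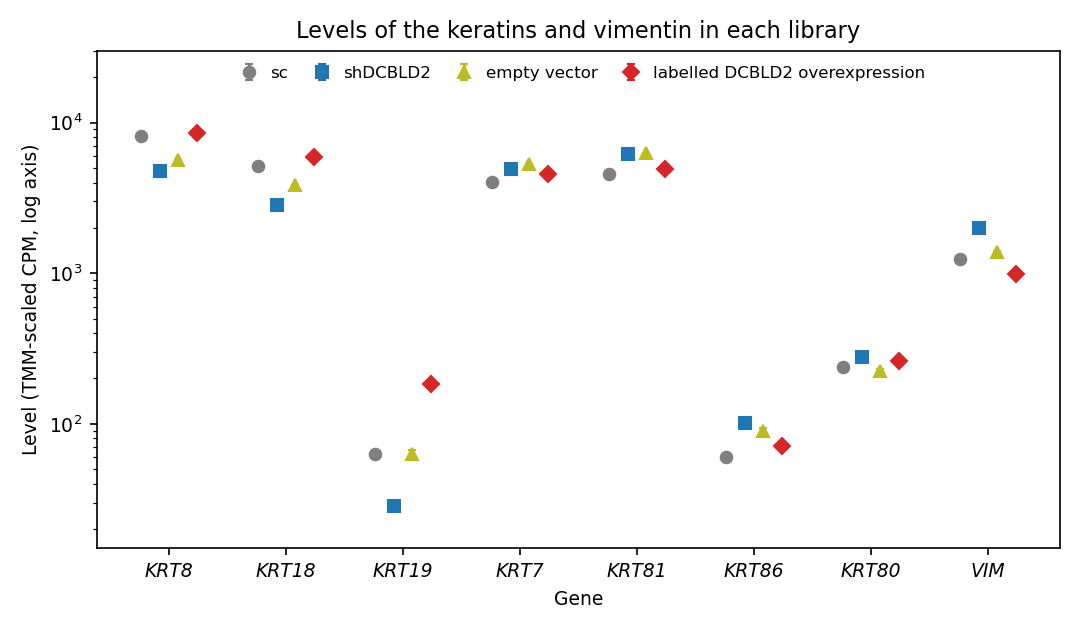
Level of each of the 8 genes (log axis, TMM-scaled CPM) in the 4 libraries, 1 point per library, with the exact 95% Poisson interval as a bar where it is larger than the point. KRT8 and KRT18 share an order of libraries, KRT19 has the widest range (28.5 to 183 CPM), and VIM is highest in shDCBLD2 and lowest in the OE-labelled library.

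KRT8 and KRT18, the partners of the simple epithelial filament, followed each other closely. KRT8 (ENSG00000170421, chr12:52897187-52949954 on GRCh38, minus strand) stood at 8208 CPM in sc, 4745 CPM in shDCBLD2, 5625 CPM for the empty vector and 8547 CPM in the OE-labelled library. KRT18 (ENSG00000111057, chr12:52948871-52952901, plus strand) stood at 5168, 2850, 3830 and 5895 CPM in the same libraries. Both genes were thus high in sc and in the OE-labelled library and low in shDCBLD2 and with the empty vector, in the same order. Against the empty vector, the OE-labelled library was higher by a log2 ratio of 0.60 (interval 0.59 to 0.62) for KRT8 and 0.62 (0.61 to 0.64) for KRT18. Against sc, shDCBLD2 gave a log2 ratio of -0.79 (-0.80 to -0.78) for KRT8 and -0.86 (-0.87 to -0.84) for KRT18. The empty vector itself was below sc, at -0.55 and -0.43, so the size of both differences hung on the control. Against sc the OE-labelled library was at 0.06 for KRT8 and 0.19 for KRT18, and shDCBLD2 against the empty vector was at -0.25 and -0.43. The ratio of KRT8 to KRT18 in FPKM stayed between 0.932 and 1.07 over the 4 libraries, although the level of KRT18 ranged over a factor of 2.07. In bulk RNA, fewer cells that express a gene and less RNA per cell cannot be told apart.

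The KRT8 and KRT18 genes lie head to head, and their deposited gene models overlap by 1084 bases on opposite strands. In GENCODE 29 they share 525 exonic bases. Whether the counting used the strand is not given in the sources used here, so reads from that stretch may have been given to either gene. Reads of this pair can also be misplaced on their processed pseudogenes. The table holds 50 KRT8 and 67 KRT18 pseudogenes. The KRT8 pseudogenes together received between 119 and 248 counts in a library, and those of KRT18 between 18 and 41. The highest, KRT8P12, had 151 counts in sc, 203 in shDCBLD2, 109 for the empty vector and 71 in the OE-labelled library. All 130 keratin pseudogenes together amounted to between 0.0345% and 0.0653% of the counts of the 7 keratins.

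KRT19, a type I keratin that can pair with several type II partners, was the least abundant simple epithelial keratin among the 8 genes and changed most of them. It (ENSG00000171345, chr17:41523617-41528308, minus strand) received 1228 counts in sc, 614 in shDCBLD2, 1163 for the empty vector and 3028 in the OE-labelled library, or 62.8, 28.5, 63.4 and 183 CPM. The 2 controls were alike, with a log2 ratio of 0.01 (-0.10 to 0.13) of the empty vector over sc, the only neighbours in the order of any of the 8 genes that did not differ beyond counting error. The OE-labelled library was higher than the empty vector by a log2 ratio of 1.53 (1.44 to 1.63), and 3.52% of the tested genes were at least as high. In shDCBLD2 the log2 ratio against sc was -1.14, with an interval that ran from -1.28 up to a 2-fold difference, and 4.34% of the tested genes were at least as low. KRT19 accounted for 0.989% of the type I keratin counts in shDCBLD2 and 3.02% in the OE-labelled library. Its direction did not depend on the control, since the log2 ratio was 1.55 against sc in place of the empty vector, and -1.15 for shDCBLD2 against the empty vector.

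KRT7 and KRT81, both type II keratins, shared an order of libraries that differed from that of KRT8. KRT7 (ENSG00000135480, chr12:52232520-52252186, plus strand) stood at 4051 CPM in sc, 4938 CPM in shDCBLD2, 5276 CPM for the empty vector and 4522 CPM in the OE-labelled library. KRT81 (ENSG00000205426, chr12:52285913-52291534, minus strand) stood at 4567, 6169, 6278 and 4923 CPM. Both were highest for the empty vector and lowest in sc, and the ratio of KRT81 to KRT7 in FPKM stayed between 2.31 and 2.65. Against their own controls the log2 ratios were -0.22 for KRT7 and -0.35 for KRT81 in the OE-labelled library, and 0.29 and 0.43 in shDCBLD2. The controls themselves differed by 0.38 and 0.46, more than in either comparison. Each of these directions turned with the other control. Against sc, the OE-labelled library gave 0.16 for KRT7 and 0.11 for KRT81, and shDCBLD2 against the empty vector gave -0.10 and -0.025.

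KRT86 had few counts beside KRT81. It (ENSG00000170442, chr12:52249300-52309163, plus strand) received 1172 counts in sc, 2183 in shDCBLD2, 1635 for the empty vector and 1172 in the OE-labelled library, or 59.9, 101, 89.1 and 71.0 CPM. The log2 ratio was 0.76 (0.65 to 0.86) for shDCBLD2 against sc and 0.57 (0.46 to 0.68) for the empty vector against sc. For the OE-labelled library it was -0.33 (-0.44 to -0.22) against the empty vector but 0.24 against sc, so this direction turned with the control too. For shDCBLD2 against the empty vector it was 0.18. KRT86 amounted to between 1.31% and 1.64% of the KRT81 counts in every library, and whether KRT81 reads placed on the wrong gene contribute to it was not tested.

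The coding sequences of these hair-type keratins show how far their reads can be told apart. In their longest coding transcripts KRT81 and KRT86 are 89.6% identical over 1519 aligned positions, with 93 mismatches, and share a run of 605 identical bases. A stretch of 100 bases, from position 61 to 160 of both coding sequences, has 0 differences. It lies at chr12:52291306-52291405 on the minus strand in KRT81 and at chr12:52301977-52302076 on the plus strand in KRT86 (GENCODE 29, GRCh38), and a read within it fits both genes:
KRT81: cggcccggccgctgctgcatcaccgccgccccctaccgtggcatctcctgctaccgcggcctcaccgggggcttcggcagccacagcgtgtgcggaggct
KRT86: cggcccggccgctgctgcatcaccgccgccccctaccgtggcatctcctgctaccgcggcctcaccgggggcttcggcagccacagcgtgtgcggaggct
The aligned stretch of 100 bases with the most differences, shown because reads from it can be placed, starts and ends at positions 1227 and 1326 of both coding sequences and crosses an exon junction. It has 19 differences, which stand in capitals:
KRT81: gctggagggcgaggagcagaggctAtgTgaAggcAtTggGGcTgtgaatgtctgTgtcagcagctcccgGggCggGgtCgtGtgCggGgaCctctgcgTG
KRT86: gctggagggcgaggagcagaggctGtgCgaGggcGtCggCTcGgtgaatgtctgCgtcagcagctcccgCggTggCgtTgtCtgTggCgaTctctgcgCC

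Of all windows of 50 bases along the longest coding transcript, 44.6% for KRT81 and 40.5% for KRT86 also occurred in a transcript of another gene. The share was 10.8% for KRT7, 3.73% for KRT8, 1.79% for KRT19 and 0.416% for KRT80. The KRT8 windows were found in 212 other genes, none of them a KRT8 pseudogene. The other KRT8 transcripts were not examined, so low shares for KRT8 do not show that its reads are unique. For KRT18 it was 43.4%, with the windows found in KRT8 on the opposite strand and in KRT18 pseudogenes, and for VIM 38.2%, through antisense transcripts of the VIM locus. With windows of 100 bases the shares were 30.3% for KRT81, 28% for KRT86, 15.2% for KRT18 and 29.3% for VIM, and 0% for KRT8, KRT19 and KRT80. The antisense gene VIM-AS1 received between 9 and 21 counts in a library. KRT86 also spans KRT81 on the opposite strand and overlaps KRT7 by 2887 bases on the same strand in the deposited gene models, without a shared exonic base in GENCODE 29.

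KRT80 varied least. It (ENSG00000167767, chr12:52168996-52192000, minus strand) stood at 238 CPM in sc, 278 CPM in shDCBLD2, 225 CPM for the empty vector and 263 CPM in the OE-labelled library. The log2 ratio was 0.22 (0.16 to 0.28) for the OE-labelled library against the empty vector and 0.22 (0.17 to 0.28) for shDCBLD2 against sc. KRT80 was therefore slightly higher in both manipulated libraries than in either control, by 1.23-fold between the highest and the lowest library.

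Vimentin took the opposite course to KRT8, KRT18 and KRT19 in both comparisons with a matched control. VIM (ENSG00000026025, chr10:17228259-17237593, plus strand) received 24155 counts in sc, 43369 in shDCBLD2, 25497 for the empty vector and 16424 in the OE-labelled library, or 1235, 2011, 1389 and 995 CPM. It was highest in shDCBLD2 and lowest in the OE-labelled library, with both controls in between. The log2 ratio was 0.70 (0.68 to 0.73) for shDCBLD2 against sc, and 3.37% of the tested genes were at least as high. For the OE-labelled library against the empty vector it was -0.48 (-0.51 to -0.45), and 23.8% of the tested genes were at least as low. The controls differed by 0.17 (0.14 to 0.20). With the other control the values were 0.53 and -0.31, in the same directions. Relative to the summed FPKM of the 7 keratins, VIM amounted to 3.71% in sc, 6.37% in shDCBLD2, 4.01% for the empty vector and 2.72% in the OE-labelled library.

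A change was counted only from 2-fold upwards, and where the counting interval left out a ratio of 1. Of the 8 genes, 1 was higher (KRT19) and 0 were lower in the OE-labelled library against the empty vector, where 6.42% of all tested genes were higher and 5.35% lower. In shDCBLD2 against sc, 0 were higher and 1 was lower (KRT19), where 1.16% of all tested genes were higher and 5.62% lower. None of the 8 was changed 2-fold between the empty vector and sc, where 2.22% of tested genes were higher and 1.89% lower. At 1.5-fold, KRT8, KRT18 and KRT19 were higher in the OE-labelled library (3 of 8, against 12.8% of tested genes) and 0 of 8 were lower (17.8%). At the same threshold KRT8, KRT18 and KRT19 were lower in shDCBLD2 (3 of 8, against 11.6%), while KRT86 and VIM were higher (2 of 8, against 4.93%). Between the controls 0 of 8 passed 1.5-fold, against 7.07% of tested genes higher and 6.67% lower. With the other control, KRT19 alone of the 8 passed 1.5-fold, at 2.92-fold higher in the OE-labelled library than in sc and 2.22-fold lower in shDCBLD2 than for the empty vector, whereas VIM was 1.45-fold higher and KRT18 1.34-fold lower in shDCBLD2. The share of all tested genes was not computed with the other control, so this count cannot be set against a background. The median log2 ratio of the 8 genes was 0.00, 0.25 and 0.09 in the 3 comparisons, beside -0.04, 0.01 and -0.01 over all tested genes.

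**Figure D2:**
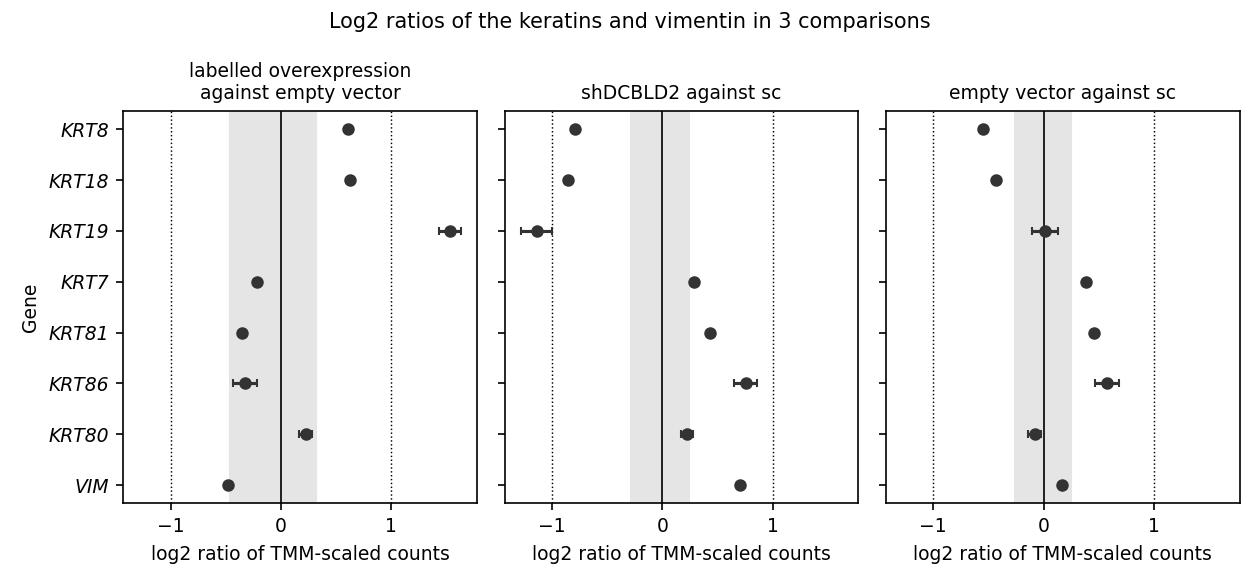
Log2 ratio of TMM-scaled counts (horizontal axis) of each of the 8 genes in 3 comparisons, with exact 95% intervals of counting error as bars. Dotted lines mark 2-fold and the grey band spans the interquartile range of all 13966 tested genes. KRT8, KRT18 and KRT19 lie to the right on the left panel and to the left on the middle panel, and VIM does the reverse. The right panel shows that the controls also differed in KRT8, KRT18, KRT7, KRT81 and KRT86, and by less in VIM (0.17) and KRT80 (-0.08).

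The pool of keratin RNA as a whole moved little while its make-up changed. The 7 keratins summed to 22356 CPM in sc, 19110 CPM in shDCBLD2, 21386 CPM for the empty vector and 24405 CPM in the OE-labelled library. The log2 ratios of the sums were 0.19 for the OE-labelled library against the empty vector, -0.23 for shDCBLD2 against sc and -0.06 for the empty vector against sc. Without KRT81 and KRT86, whose reads can be confused, they were 0.37, -0.47 and -0.24. KRT8, KRT18 and KRT19, a grouping made after their values were seen, accounted for 60.1% of the keratin counts in sc and 59.9% in the OE-labelled library. They accounted for 39.9% in shDCBLD2 and 44.5% with the empty vector. KRT7, KRT81 and KRT86 made up 38.8%, 39.0%, 58.7% and 54.4% in the same order of libraries. By make-up, the empty vector was thus nearer to shDCBLD2 and sc nearer to the OE-labelled library, so the libraries did not divide into controls and manipulated lines.

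Since filaments need both types, the balance of type II to type I RNA was computed per length. The summed FPKM of the 5 type II keratins was 3.11 times that of KRT18 and KRT19 in sc, 6.08 times in shDCBLD2, 4.73 times for the empty vector and 2.86 times in the OE-labelled library. Type II RNA exceeded type I RNA in every library. The type II sum moved little, with log2 ratios of 0.07, -0.08 and 0.03 in counts in the 3 comparisons, while KRT8 differed in direction from KRT7, KRT81 and KRT86. The type I sum moved by 0.64, -0.86 and -0.43. These values concern RNA, and protein levels were not analysed here.

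**Figure D3:**
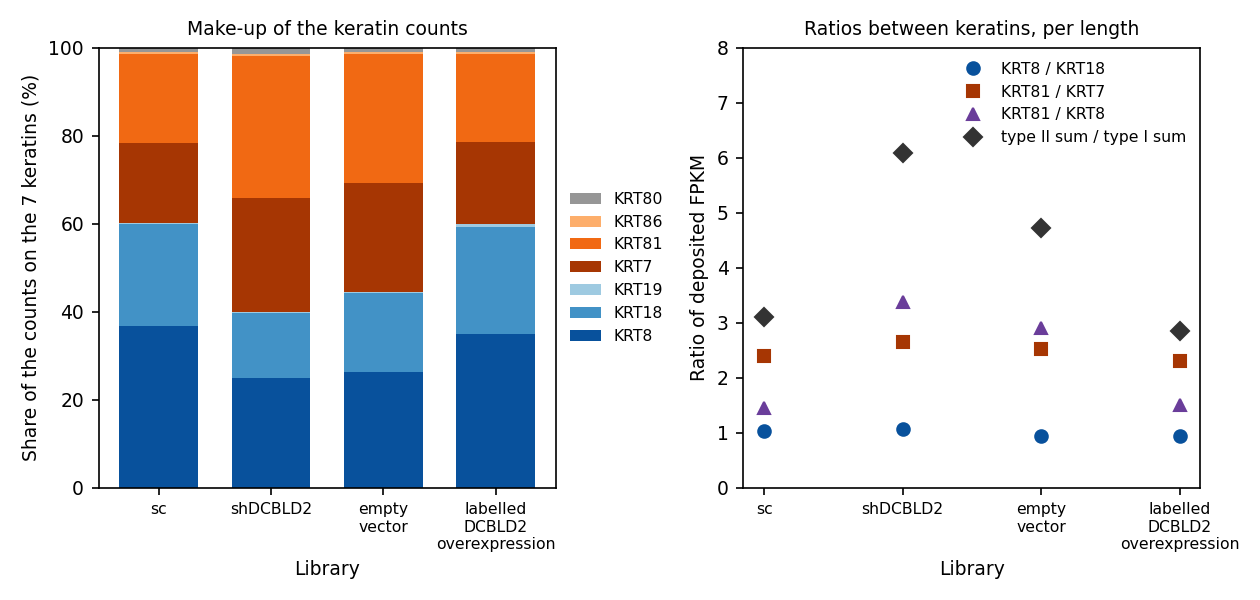
Left, share of the counts on the 7 keratins (%) taken by each keratin in the 4 libraries, as stacked bars from 0. Right, ratios of deposited FPKM between keratins in each library. The blue part (KRT8, KRT18, KRT19) is 60.1% in sc and 39.9% in shDCBLD2, KRT8 / KRT18 stays near 1, and the ratio of the type II to the type I sum ranges from 2.86 to 6.08.

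Genes with a pattern like that of a member were sought among 9154 genes with a mean of at least 10 CPM, by the Euclidean distance between log2 CPM centred over the 4 libraries. With 4 libraries many genes can lie close by, and the distances are a description. For VIM the 3 nearest were FJX1 (distance 0.06), GINS2 (0.07), a subunit of the replicative helicase complex, and EXOSC3 (0.08), a subunit of the RNA exosome. FJX1 stood at 44.3 CPM in sc, 74.0 CPM in shDCBLD2, 49.6 CPM for the empty vector and 37.4 CPM in the OE-labelled library. For KRT19, the member with the widest range, the 3 nearest were LRIG1 (0.11), a negative regulator of ErbB receptors, CERS4 (0.19), a ceramide synthase, and the imprinted noncoding RNA H19 (0.24). LRIG1 stood at 8.64, 3.66, 8.55 and 26.7 CPM in those libraries. Among the members, KRT8 and KRT18 were 0.16 apart, and KRT18 ranked 10 among the genes nearest to KRT8. KRT7 and KRT81 were 0.15 apart, and KRT7 ranked 48 among the genes nearest to KRT81.

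Other keratins were scarce in these cells. Of 26 further type I keratins, 2 (KRT10 and KRT15) passed the filter, 18 had at most 3 counts in each library, and 11 of these had no count at all. Of 21 further type II keratins, 2 (KRT4 and KRT83) passed the filter, 16 had at most 3 counts in each library, and 7 of these had no count. KRT4, a keratin of internal stratified epithelia, varied more than any of the 8 genes. It had 503 counts in sc, 44 in shDCBLD2, 271 for the empty vector and 679 in the OE-labelled library, with log2 ratios of -3.59 (-4.13 to -3.21) for shDCBLD2 against sc and 1.47 (1.27 to 1.69) for the OE-labelled library against the empty vector. KRT4 was thus ordered over the libraries as KRT8 and KRT18 were. KRT83, a hair keratin related to KRT81, had 73, 23, 93 and 70 counts and a log2 ratio of -1.71 in shDCBLD2, opposite to KRT81 and KRT86. KRT10, a keratin of differentiating epidermis, had 822, 688, 798 and 865 counts, and KRT15, a basal keratin, 42, 58, 64 and 59 counts.

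Some keratins that did not pass the filter, KRT14, KRT16, KRT17, KRT20 and KRT6A, had most of their few counts in the OE-labelled library. They are listed because they were high there. Without the filter, 4 of the 26 further type I and 2 of the 21 further type II keratins were 2-fold higher there than with the empty vector. The share of all genes was 3.23%, a share that includes genes without counts. KRT14, the basal type I keratin, had 11 counts there and 0 in each of the other 3 libraries. KRT17 had 24 counts there against 1, 0 and 0 in sc, shDCBLD2 and the empty vector, and KRT16 had 39 against 9, 4 and 1. KRT6A had 14 counts there against 2, 5 and 0, and KRT20, a keratin of gut epithelium, 31 against 4, 6 and 4. KRT5, the usual partner of KRT14, had at most 2 counts in any library. KRT75, also under the filter, had 8 counts in shDCBLD2, 1 in the OE-labelled library and 0 in both controls.

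Among other intermediate filament genes, 11 of 14 passed the filter. In the OE-labelled library 2 of the 11 were higher than with the empty vector, the neurofilament genes NEFL (log2 ratio 1.75) and NEFM, beside 6.42% of all tested genes. The neuronal filament gene INA (-1.12) was lower, as 1 of 11 beside 5.35%. NEFM had 221 counts in that library, 0 with the empty vector, 1 in sc and 4 in shDCBLD2, which is at least 81.9-fold higher than the floor of 3 counts for the empty vector. It passed the filter only through the OE-labelled library, so this call was not independent of the filter. NEFL was also higher in shDCBLD2 than in sc (1.21), as 1 of 11, with 0 lower, beside 1.16% and 5.62% of all tested genes. INA, at 33.6, 40.2, 30.0 and 13.8 CPM in sc, shDCBLD2, the empty vector and the OE-labelled library, had the highest and the lowest library in common with VIM. The nuclear lamins LMNA, LMNB1 and LMNB2 differed by at most 0.36 on the log2 scale in either comparison. The median log2 ratio of the 11 was 0.09 and 0.28 in these comparisons.

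Desmosomes are the junctions that anchor keratin filaments, and 11 of 16 desmosome genes passed the filter. In shDCBLD2 3 of the 11 were lower than in sc and 0 were higher, beside 5.62% and 1.16% of all tested genes. JUP (plakoglobin), which links desmosomal cadherins to the filament linker, had a log2 ratio of -1.37, PKP2 (plakophilin 2) of -2.11, and PPL (periplakin), a filament linker, of -1.63. In the OE-labelled library 0 of 11 passed 2-fold against the empty vector, beside 6.42% of all tested genes higher and 5.35% lower. In this comparison JUP stood at 0.85, PKP2 at 0.64 and PPL at 0.12. JUP had 345 CPM in sc, 133 CPM in shDCBLD2, 398 CPM for the empty vector and 718 CPM in the OE-labelled library. DSP (desmoplakin), which binds the filaments directly, had 90.3, 61.2, 56.1 and 80.3 CPM, and PKP3 differed by at most 0.05 on the log2 scale in either comparison. The median log2 ratio of the 11 was 0.18 in the OE-labelled library, -0.64 in shDCBLD2 and -0.14 between the controls.

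Hemidesmosomes anchor keratins to the basement membrane through plectin and the integrin made of ITGA6 and ITGB4, and all 6 genes of that list passed the filter. ITGB4 had 248 CPM in sc, 115 CPM in shDCBLD2, 226 CPM for the empty vector and 384 CPM in the OE-labelled library, with log2 ratios of -1.12 in shDCBLD2 and 0.76 in the OE-labelled library. Its partner ITGA6, named here after its values were seen, had 56.5, 61.8, 44.6 and 30.0 CPM and did not follow it. Of the 6 genes, ITGB4 alone was 2-fold lower in shDCBLD2, beside 5.62% of all tested genes. COL17A1 alone was 2-fold higher in the OE-labelled library, beside 6.42%, and no other gene of the list passed 2-fold in either comparison. COL17A1 was higher in the OE-labelled library at 54 counts against 13 with the empty vector, but had 32 counts in sc and 48 in shDCBLD2. PLEC (plectin) stood at log2 ratios of 0.29 and 0.09. Of 8 regulators of keratin filaments, 1 was 2-fold higher in the OE-labelled library, EPPK1 (epiplakin), beside 6.42% of all tested genes. In shDCBLD2 0 of the 8 passed 2-fold, beside 1.16% of all tested genes higher and 5.62% lower. EPPK1 had 45 counts in the OE-labelled library against 6 with the empty vector, 13 in sc and 7 in shDCBLD2. It passed the filter only through the OE-labelled library, so this call was not independent of the filter. The small heat shock protein gene HSPB1 differed by 0.07 and 0.44, and SFN, which encodes a 14-3-3 protein that binds keratins, by 0.00 and 0.24.

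Markers of cell types were read beside these values. Of 10 epithelial markers, 6 passed the filter, while GRHL2 and ESRP1 had at most 2 counts in any library, so part of the epithelial set was not detected above a few counts in these cells. In shDCBLD2 5 of the 6 were lower (EPCAM, CDH1, ELF3, SPINT1 and CLDN4) and 0 higher, beside 5.62% and 1.16% of all tested genes. CDH1, the E-cadherin gene, stood at a log2 ratio of -2.38. In the OE-labelled library 3 of the 6 were higher (EPCAM, SPINT1 and CLDN4) and 0 lower, beside 6.42% and 5.35% of all tested genes. There CDH1 stood at 0.56. The 10 markers summed to 687 CPM in sc, 400 CPM in shDCBLD2, 954 CPM for the empty vector and 1410 CPM in the OE-labelled library. Unlike KRT8 and KRT18, this sum was higher with the empty vector than in sc. Most of it was SPINT2, at 454, 303, 647 and 1053 CPM in the same order of libraries. Of the 6 markers past the filter, 4 were higher with the empty vector than in sc and 2 were lower. Those 2, CDH1 and EPCAM, were ordered over the libraries as KRT8 and KRT18 were.

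Markers of other cell types differed between lists. The 10 fibroblast markers summed to 36.1 CPM in sc, 57.0 CPM in shDCBLD2, 37.9 CPM for the empty vector and 80.0 CPM in the OE-labelled library. Most of each sum was COL1A1, at 32.7, 54.0, 35.5 and 63.1 CPM. Between 1 (in the OE-labelled library) and 5 (for the empty vector) of the 10 had no count. Of the 4 that passed the filter, 3 (COL1A2, COL3A1 and COL6A3) were higher in the OE-labelled library than for the empty vector, beside 6.42% of all tested genes. COL1A2 and COL3A1 were under 1 CPM in each other library. They passed the filter only through the OE-labelled library, so their calls were not independent of the filter. In it COL1A2 had 67 counts against 17, 1 and 0 in sc, shDCBLD2 and the empty vector, COL3A1 68 against 9, 18 and 6, and POSTN 42 against 0 in each of the others. DCN and LUM had 4 and 1 counts there and 0 elsewhere, and FAP had 0 in all 4. The 10 markers of HEK293 cells, the line behind the packaging cells, summed to 306, 421, 241 and 259 CPM in sc, shDCBLD2, the empty vector and the OE-labelled library. This sum was highest in shDCBLD2, where PEG10 made up most of it. PEG10, the most abundant of the list by mean level, stood at 218, 345, 139 and 81.2 CPM, whereas PCSK1N stood at 39.7, 35.8, 58.4 and 114 CPM. Of the 8 markers past the filter, 2 (LIN28B and NEFM) were higher and 0 lower by 2-fold in the OE-labelled library than for the empty vector. The shares of all tested genes were 6.42% and 5.35%. At any size 5 were above the empty vector (PAX2, TUBB2B, PCSK1N, LIN28B and NEFM) and 3 below. At 1.5-fold these 5 were higher and 1 of the 8 was lower, beside 12.8% and 17.8% of tested genes. NEFM passed the filter only through the OE-labelled library. So did PAX2, at 0.716, 0.185 and 1.91 CPM in sc, shDCBLD2 and the empty vector and 3.33 CPM in the OE-labelled library. The calls of NEFM and PAX2 were therefore not independent of the filter. LIN28B had 78 counts in the OE-labelled library against 25, 25 and 27, whereas TSPYL5 stood at 22.6 CPM for the empty vector and 19.3 CPM in the OE-labelled library. STMN2 and SYT4 had no count in any library. The 10 blood markers summed to 13.5, 10.8, 17.9 and 25.8 CPM, with 2 past the filter and PTPRC at 0 in all 4 libraries. The 2 past the filter were above the empty vector in the OE-labelled library, but 0 of them by 2-fold, beside 6.42% of all tested genes. CD14 stood at 7.36, 3.48, 14.2 and 20.1 CPM. It was the 1 of the 2 that was 2-fold lower in shDCBLD2 than in sc, beside 5.62% of all tested genes. The part of all these markers in the keratin and vimentin values was not tested.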

How the data were processed

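RNA-seq of poly(A) RNA covered 4 A549 lines, 1 library each. The authors deposited raw counts per gene, and FPKM values that followed from the count, the exonic gene size and the library total for 100% of genes. The aligner, the counter and the use of strand are not given in the sources used here. The submitters' processing notes name mm9, a mouse build, although the gene identifiers are human. Positions and sequences were therefore taken by symbol from GENCODE 29 on GRCh38, and deposited positions served only to find overlapping genes. Counts were scaled with TMM factors between 0.981 and 1.02 (edgeR 4.0.16, R 4.3.3). Log2 ratios used a prior count of 2, scaled to the library, with Clopper-Pearson intervals, and levels had Poisson intervals (Python 3.11.15, scipy 1.17.1). The method was tested on simulated Poisson counts, the error its intervals assume. These hold no variation between libraries, so the test cannot judge that variation. Genes with a mean of at least 1 CPM were tested for size of change. The members and lists were chosen with earlier results of these data known. Named genes are the members, DCBLD2, genes of each list that changed 2-fold (at most 5 a comparison) or were among its 3 highest, the 3 genes nearest to VIM and to KRT19, overlapping genes, and pseudogenes with at least 50 counts. Others were chosen after their values were seen. Alternatives were DESeq2 1.42.0 size factors, library totals, FPKM, prior counts of 0.5 and 5, the other control, thinning to the smallest total, other filters, 1.5-fold, and sums without KRT81 and KRT86.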

Additional observations from a re-analysis of the deposited data

How the results depend on the processing

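No paired analysis was possible because each condition has 1 library. For the same reason no replicate could be left out, and 4 libraries cannot separate a condition from the line it was measured in. For VIM, shDCBLD2 against sc gave a log2 ratio of 0.73 with DESeq2 size factors, 0.67 with library totals or FPKM and 0.53 against the empty vector, the empty vector against sc 0.11 with library totals or FPKM, and the OE-labelled library against sc -0.31. For the summed keratins, that library against the empty vector gave 0.21 with DESeq2 size factors or library totals, 0.13 with the other control, 0.10 with FPKM and 0.37 without KRT81 and KRT86. In the same order of settings, shDCBLD2 against sc gave -0.20 and -0.26, then -0.16, -0.11 and -0.47. The empty vector against sc gave -0.13 with library totals, -0.0069 with FPKM and -0.24 without KRT81 and KRT86. At 1.5-fold, 3 of the 8 genes were higher in the OE-labelled library, and in shDCBLD2 2 were higher and 3 lower. The other control turned 5 directions, to 0.16 for KRT7, 0.11 for KRT81 and 0.24 for KRT86 in the OE-labelled library and to -0.10 for KRT7 and -0.025 for KRT81 in shDCBLD2. The cause was not tested. The ratio of KRT19 between the controls, which was within counting error of 0, also changed sign, to -0.049 with library totals or FPKM. Prior counts of 0.5 and 5, and counts drawn down to the smallest library, moved all 24 ratios of the 8 genes by less than their counting intervals. The lowest count of any of the 8 genes was 614, so depth limits mainly the scarce keratins.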
